A study of Mus musculus with 8 samples.

Results

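Non-classical major histocompatibility complex (MHC) class I genes, also called class Ib genes, were examined in haematopoietic stem and progenitor cells of mice with and without chronic myelogenous leukaemia (CML). The members were the 7 rows of the expression files with the symbols H2-T3, H2-T10, H2-T22, H2-T23, H2-T24, H2-Bl and H2-M3, out of 20207 genes in each file. They were chosen by symbol as a family, and selected with the RPKM values of the contrast between CML stem cells and normal haematopoietic stem cells (HSCs) in view for some of them, so their values in that contrast are given as a description and without a test.

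RNA sequencing had been performed on 8 libraries of sorted bone marrow cells. In normal mice the populations were long-term HSCs (LT-HSCs, CD150+CD48-CD135-KLS+, 1 library from mice labelled 2 months old and 1 labelled 6 months old), short-term HSCs (ST-HSCs, CD150-CD48-CD135-KLS+, 1 library, 2 months) and KLS- progenitors (cKit+Lineage-Sca-1-, 1 library, 2 months). In CML-affected mice they were LT-CML stem cells (2 libraries), ST-CML stem cells (1 library) and CML-KLS- cells (1 library), sorted by the same surface markers. No age is labelled for the CML libraries, and the study's methods on the sort describe young adult CML-affected and littermate mice some weeks after doxycycline withdrawal, which does not cover the 6-month label of a normal library. The study's methods describe CML-affected mice as Tal1-tTA and TRE-BCR-ABL1 double transgenics, in which the haematopoietic Tal1 element drives the tetracycline transactivator and BCR-ABL1 is induced by withdrawal of doxycycline, and describe their controls as littermates that carry Tal1-tTA alone. The 3 CML stem libraries (LT and ST) were compared with the 3 normal HSC libraries (LT and ST). The labels name the strain as C57BL/6 for every library, whereas the methods give an FVB/N background for the transgenic mice. For its metabolite measurements the paper also used healthy C57BL/6 control mice of a younger and an older age. For RNA sequencing its text names littermate controls, and whether any normal library came from the C57BL/6 controls is not stated. Class I genes differ between mouse strains in sequence and in number, so a difference of MHC haplotype between the CML and normal mice, if there was one, cannot be told apart from a difference of disease in any value below.

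Class Ib molecules resemble the classical class I molecules that display peptides to cytotoxic T cells, but vary less between individuals and are recognised by more specialised receptors. Qa-1, the product of H2-T23, presents leader peptides of other class I molecules to the CD94-NKG2 receptors of natural killer cells and of some T cells. H2-T3 encodes the thymus leukaemia antigen, which binds the CD8 alpha homodimer. H2-T10 and H2-T22 are a closely related pair recognised by gamma delta T cells without a bound peptide. H2-M3 presents peptides that start with N-formylmethionine, as those of bacteria and mitochondria do.

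In the mm9 assembly the 7 genes lie on chromosome 17. From the GENCODE M1 annotation, H2-T24 occupies chr17:36142640-36157505, H2-T23 chr17:36166718-36169800, H2-T22 chr17:36174073-36179692, H2-Bl chr17:36201920-36221168, H2-T10 chr17:36252821-36258410 and H2-T3 chr17:36322517-36327232, all on the minus strand, and H2-M3 chr17:37407165-37411429 on the plus strand. H2-T10 and H2-Bl are annotated there as polymorphic pseudogenes, meaning loci whose reading frame is open in some strains and not in others. The other 5 are annotated as protein coding.

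In the mm9 reference the sequences differ enough for most of the genes to be told apart by exact matches. Reads of mice with another MHC haplotype, and matches with mismatches, were not examined. When the exons were read as windows of 100 bases, the length of the study's reads, every window of H2-T3, H2-T24, H2-Bl and H2-M3 was found once in the genome. Of the windows of H2-T10 94.9% were unique, of those of H2-T22 88.0% and of those of H2-T23 85.7%. H2-T10 and H2-T22 shared 54 windows, and their longest coding transcripts were 97.17% identical over 1764 aligned bases. The pair lay on opposite sides of normal HSCs in CML stem cells, so a stretch that separates them is shown. It was picked for having the most differences among stretches of 100 bases within exons of equal length. It is not typical of the pair, which had 43 mismatches over the 1764 aligned bases. In 100 bases of an exon of 105 bases the genes differed at 14 positions, which are in capitals (mm9, printed 5′ to 3′ along the genes' strand).
H2-T10 exon, chr17:36255886-36255985, minus strand: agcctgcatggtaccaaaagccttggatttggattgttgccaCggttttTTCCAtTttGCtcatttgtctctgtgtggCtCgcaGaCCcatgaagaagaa
H2-T22 exon, chr17:36177175-36177274, minus strand: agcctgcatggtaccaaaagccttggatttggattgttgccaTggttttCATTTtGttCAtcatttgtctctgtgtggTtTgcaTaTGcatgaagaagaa

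RefSeq promoter sequence was at hand for 4 of the 7 genes (GRCm38.p6). These are shown because they carry both members that were lower in CML stem cells (H2-T22 and H2-T23), 1 that was higher (H2-T3) and the 1 that overlapped (H2-M3). Class I promoters are known for an interferon-stimulated response element (ISRE), a kappa B site and elements bound by the regulatory factor X and NF-Y complexes. The 250 bases before each start site were searched on both strands for the ISRE core, a kappa B site, CCAAT (the NF-Y box) and TGACG (a half-site of the cyclic AMP response element). None of these motifs contains another. Capitals mark the matches, also where the match is on the opposite strand.
H2-T3 promoter, chr17:36190152-36190401, minus strand: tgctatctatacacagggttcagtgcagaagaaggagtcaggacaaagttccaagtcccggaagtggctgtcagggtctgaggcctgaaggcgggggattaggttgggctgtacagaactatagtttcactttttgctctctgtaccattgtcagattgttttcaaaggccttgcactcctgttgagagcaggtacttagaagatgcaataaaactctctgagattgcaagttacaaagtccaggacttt
H2-T22 promoter, chr17:36042743-36042992, minus strand: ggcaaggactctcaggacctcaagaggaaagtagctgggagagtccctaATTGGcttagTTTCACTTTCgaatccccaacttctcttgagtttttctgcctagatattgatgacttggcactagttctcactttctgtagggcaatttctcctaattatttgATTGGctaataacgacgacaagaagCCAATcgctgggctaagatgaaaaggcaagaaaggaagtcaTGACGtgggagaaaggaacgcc
H2-T23 promoter, chr17:36032702-36032951, minus strand: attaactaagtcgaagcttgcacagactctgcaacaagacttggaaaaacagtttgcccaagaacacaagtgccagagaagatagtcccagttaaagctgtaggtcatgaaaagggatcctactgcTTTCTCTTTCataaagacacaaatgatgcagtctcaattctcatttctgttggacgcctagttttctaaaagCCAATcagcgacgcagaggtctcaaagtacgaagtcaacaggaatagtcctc
H2-M3 promoter, chr17:37269984-37270233, plus strand: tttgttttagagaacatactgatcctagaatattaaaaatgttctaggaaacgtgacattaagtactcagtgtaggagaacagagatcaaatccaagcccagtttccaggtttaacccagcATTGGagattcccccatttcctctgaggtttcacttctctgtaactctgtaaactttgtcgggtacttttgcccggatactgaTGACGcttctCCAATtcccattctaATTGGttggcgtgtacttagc
The H2-T22 promoter held 1 ISRE core, first base 191 before the start site, with 3 CCAAT boxes and 1 TGACG. The H2-T23 promoter held 1 ISRE core, 124 before the start, and 1 CCAAT box. H2-M3 had 3 CCAAT boxes and 1 TGACG, and the H2-T3 window had a match to none of the 4 motifs. Of 32817 promoters of the same length, 2.968% held the ISRE core, 0.04571% the kappa B site, 33.83% CCAAT and 17.75% TGACG. The matches describe these letters only.

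Levels below are in RPKM, read counts scaled to the length of the transcript and to the mapped reads of the library, which can be compared between genes, and folds are ratios of mean RPKM unless a log2 difference is named. Estimated depth ran from 17.8 to 23.9 M mapped reads. The normal LT pair and the LT-CML pair had Pearson correlations of 0.981 and 0.982 across 12561 genes. The sort was visible in the transcripts: Slamf1 (CD150) was higher in LT than in ST libraries (log2 difference 2.83 ± 0.20 SE, adjusted p = 0.00123, limma) and Ly6a (Sca-1) in normal HSCs than in normal KLS- cells (3.57 ± 0.43, adjusted p = 0.00399, limma). Flt3, which encodes the CD135 used to gate cells out, was nonetheless at 61.6 RPKM in the ST-HSC and 71.6 in the ST-CML library, and at 3.95 and 2.52 in the LT-HSC against 11.9 and 19.2 in the LT-CML libraries. Cd48, the other marker gated out, was at 10.45 and 5.169 RPKM in the LT-HSC and 16.8 and 29.5 in the LT-CML libraries. Neither differed between CML stem cells and normal HSCs at the threshold (adjusted p = 0.691 and 0.622, limma). That fit pools LT and ST without a stage term, so the difference between them widens its spread. Between the LT means, CML was 4.82-fold normal for Flt3, 2.96-fold for Cd48 and 2.43-fold for Slamf1. With stage as a covariate 1 of the 5 sorting markers was called higher in CML stem cells. The part of these genes in the levels below was not tested. Kit, with the highest mean of the 5 sorting markers over the 8 libraries, was at 78.4 to 213 RPKM in all 8 libraries. The 6-month LT-HSC library stood apart from the rest of the normal HSC libraries. Its 7 neutrophil markers summed to 3928 RPKM, against 513 in the 2-month LT-HSC and 121 in the ST-HSC library. S100a8 (1802 RPKM), S100a9, Camp, Ngp and Ltf were highest there, but Mpo (69.9 against 31.8 and 95.5) and Itgam were not. Cd74, an MHC class II chaperone, was at 330 RPKM in that library against 98.7 and 64.8. Of the other macrophage and dendritic cell markers Emr1 (0.632 RPKM) and Itgax (0.0416) were highest there. Cd68 (5.36 against 5.52 and 11.35), Csf1r, C1qa, C1qb and Siglech were not. The same neutrophil sum was 233 to 2297 in the CML stem libraries, 8012 among normal KLS- progenitors and 13742 among those of CML marrow, where Mpo made up most of it. Its 6 erythroid markers summed to 97.2 RPKM, against 15.84 and 10.11 in the other normal HSC libraries and 1.06 to 4.43 in the CML stem libraries, with both alpha globin rows listed at 0 throughout. Hbb-b1, a beta globin gene, had the highest mean of that list. Its neighbour Hbb-b2 was the only gene of the marker lists called between CML stem cells and normal HSCs in the fit without a stage term. It was at 0.114 ± 0.135 RPKM in CML stem cells and 15.3 ± 15.5 in normal HSCs (SD, n = 3 each, log2 difference -3.46 ± 0.56 SE, adjusted p = 0.0220, limma). That call was lost without LT-CML 1 (adjusted p = 0.1), LT-CML 2 (0.0894) or ST-CML (0.0582, limma). The summed B cell markers (5 genes, 30.9 to 54.1 RPKM in all 8 libraries) were mostly Cd79b and the T cell markers (8 genes, 2.67 to 14.8) mostly Lck, and the 7 NK cell markers (86.8 to 692) were nearly all Nkg7. The part of such transcripts in the levels below was not tested. The T cell receptor genes Cd3d, Cd3e and Cd3g stayed at or below 0.602 RPKM in every library. As these were pooled cells, fewer cells that express a gene and less RNA per cell cannot be told apart.

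H2-T23 was the most abundant member in all 8 libraries. In normal HSCs it was followed by H2-M3, with H2-T10 and H2-T24 next at levels that overlapped (5.86 to 9.01 and 6.91 to 7.14 RPKM), then H2-T22, H2-T3 and H2-Bl. In the 3 CML stem libraries the order was H2-T23, H2-T24, H2-M3, H2-T10, H2-T3, H2-Bl and H2-T22. H2-T24 thus stood above H2-M3 in all CML stem libraries, although the lowest H2-T24 value in any of them (38.6) was close to the highest H2-M3 value (34.8). H2-Bl (1.49 RPKM) and H2-T22 (1.41) were nearly level in the second LT-CML library.

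**Figure D1:**
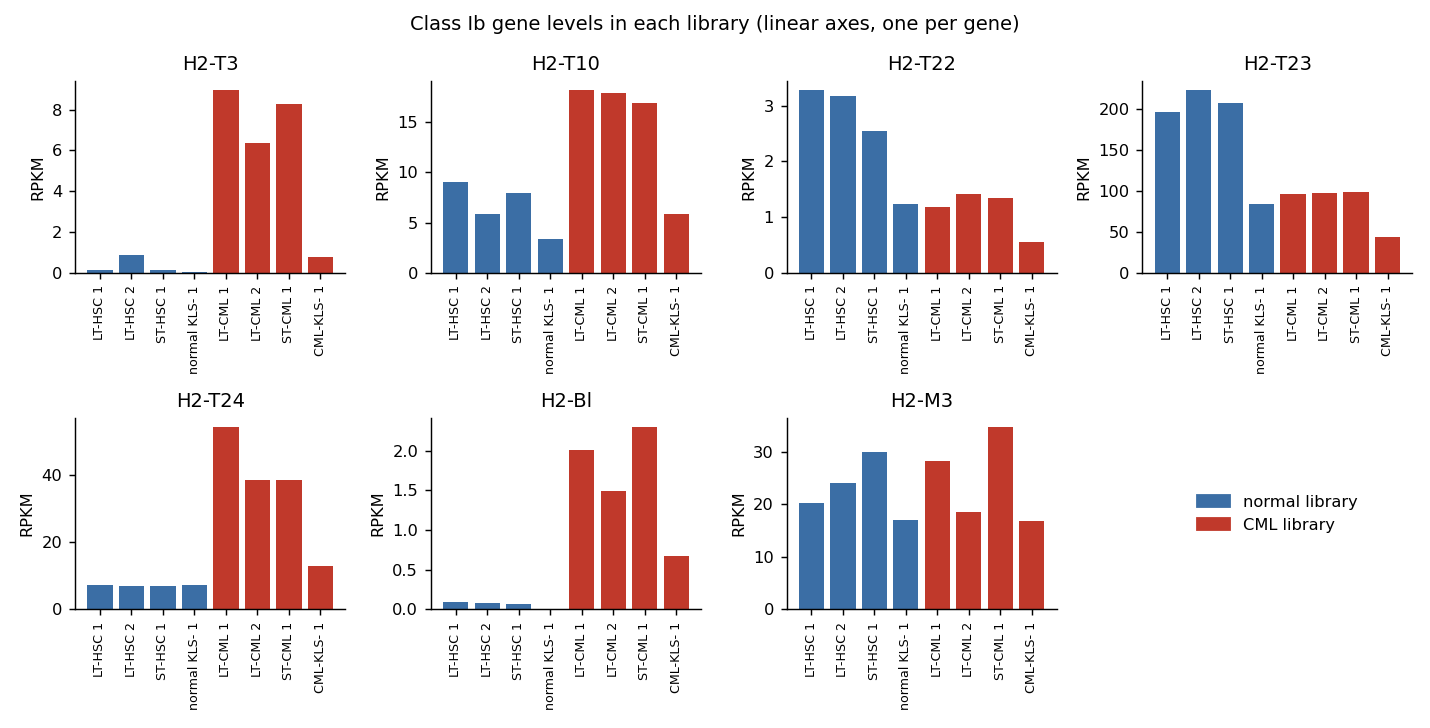
RPKM (vertical axes, linear, 1 scale per gene) of the 7 class Ib genes in each of the 8 libraries (horizontal axes), with 1 bar per library. H2-T3, H2-T10, H2-T24 and H2-Bl stand higher in the 3 CML stem libraries than in any normal library, H2-T22 and H2-T23 stand lower there than in the 3 normal HSC libraries, and H2-M3 overlaps.

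The comparison of CML stem cells with normal HSCs asks which transcripts accompany the leukaemic state in the most primitive cells. Of the 7 members 6 had all 3 CML stem libraries on one side of all 3 normal HSC libraries: H2-T3, H2-T10, H2-T24 and H2-Bl above, H2-T22 and H2-T23 below. Of all 12561 genes tested, 6.92% lay above and 11.4% below in this sense, together 18.3%. In a limma fit over all genes 2.34% were past an adjusted p of 0.05. Because the members were chosen with this contrast in view, their own calls are not given and nothing is read from their count.

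H2-T3, the thymus leukaemia antigen gene, was barely detected in normal HSCs and at a moderate level in CML stem cells. Its level was 0.115 RPKM in the 2-month LT-HSC, 0.884 in the 6-month LT-HSC and 0.122 in the ST-HSC library, and 8.96, 6.35 and 8.30 in the LT-CML 1, LT-CML 2 and ST-CML libraries. Steps in the low RPKM values put these at 5, 46 and 5 reads against 404, 252 and 337. The lowest CML stem library was above the highest normal one, and the means (7.87 ± 1.35 against 0.374 ± 0.442 RPKM, SD, n = 3 each) differed 21.1-fold. The highest normal value was in the 6-month LT-HSC library, the one with the high neutrophil and Cd74 transcripts noted above, and their part in it was not tested. Without that library the ratio of means was 66.4. Between the ST libraries alone the ratio was 68.0. There the neutrophil marker sum was 121 RPKM in ST-HSC and 1241 in ST-CML, mostly Mpo in both (95.5 and 830 RPKM). Cd74 was at 64.8 and 195 RPKM, and Cd68 of the same marker list at 11.35 and 12.72. The part of these transcripts in the ratio was not tested.

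A second row of the files, H2-Tw3, is listed as a synonym of H2-T3 in RefSeq. It was listed at 0 in all 4 normal libraries and at 1.49, 1.37 and 1.25 RPKM in LT-CML 1, LT-CML 2 and ST-CML, with 0.187 in CML-KLS- cells. How reads were divided between the H2-T3 and H2-Tw3 rows is not given in the sources used here.

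H2-T24 was the member with the most even normal values. It was at 7.14, 6.91 and 7.07 RPKM in the LT-HSC 1, LT-HSC 2 and ST-HSC libraries and at 54.4, 38.6 and 38.7 in LT-CML 1, LT-CML 2 and ST-CML. The CML stem mean was 6.24-fold the normal one (43.9 ± 9.1 against 7.04 ± 0.12 RPKM, SD, n = 3 each). The largest CML value belonged to the first LT-CML library, and the other two were nearly equal.

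H2-Bl was close to the limit of detection in normal cells. It was at 0.0991, 0.0829 and 0.0699 RPKM in the normal HSC libraries and is listed at 0 in normal KLS- cells. Its annotated transcript length of 1138 bases gives an estimate of 1.49 to 2.25 reads in each normal HSC library. That estimate depends on the length used and is not a count. The CML stem libraries had 2.01 (LT-CML 1), 1.49 (LT-CML 2) and 2.30 RPKM (ST-CML). The sets did not overlap, and with so few normal reads no ratio is given.

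H2-T10 and H2-T22 lay apart in opposite directions. H2-T10 was at 9.01, 5.86 and 7.90 RPKM in LT-HSC 1, LT-HSC 2 and ST-HSC, and at 18.2, 17.9 and 16.9 in LT-CML 1, LT-CML 2 and ST-CML. That is a 2.32-fold difference of means (17.6 ± 0.7 against 7.59 ± 1.60, SD, n = 3 each). H2-T22 was at 3.28, 3.17 and 2.54 RPKM in the same normal libraries and at 1.18, 1.41 and 1.34 in the CML stem libraries, so that the normal mean was 2.29-fold the CML mean (2.996 ± 0.397 against 1.31 ± 0.12). The steps in the values correspond to 115, 133 and 84 H2-T22 reads in the normal and 43, 45 and 44 in the CML stem libraries. Within a library, the ratio of H2-T10 to H2-T22 was 1.85 to 3.11 in the 4 normal libraries, KLS- included, and 10.8 to 15.4 in the 4 CML libraries. The exon stretch shown above is one place where reads of H2-T10 and H2-T22 part. How the authors assigned reads that match both genes is not given in the sources used here.

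H2-T23, the Qa-1 gene, was lower in CML stem cells with little spread. Its levels were 195.9, 223.2 and 207.4 RPKM in LT-HSC 1, LT-HSC 2 and ST-HSC and 96.2, 97.4 and 99.2 in LT-CML 1, LT-CML 2 and ST-CML. The normal mean was 2.14-fold the CML one (208.8 ± 13.7 against 97.6 ± 1.5 RPKM, SD, n = 3 each).

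H2-M3 overlapped between the groups. It was at 20.3, 24.2 and 30.1 RPKM in LT-HSC 1, LT-HSC 2 and ST-HSC, and at 28.2, 18.6 and 34.8 in LT-CML 1, LT-CML 2 and ST-CML. The means were 24.8 ± 4.9 and 27.2 ± 8.2 (SD, n = 3 each), and both the lowest and the highest value belonged to CML libraries. The sign of its log2 difference (0.10) depended on single libraries, with values from -0.09 to 0.34 when 1 library was left out.

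**Figure D2:**
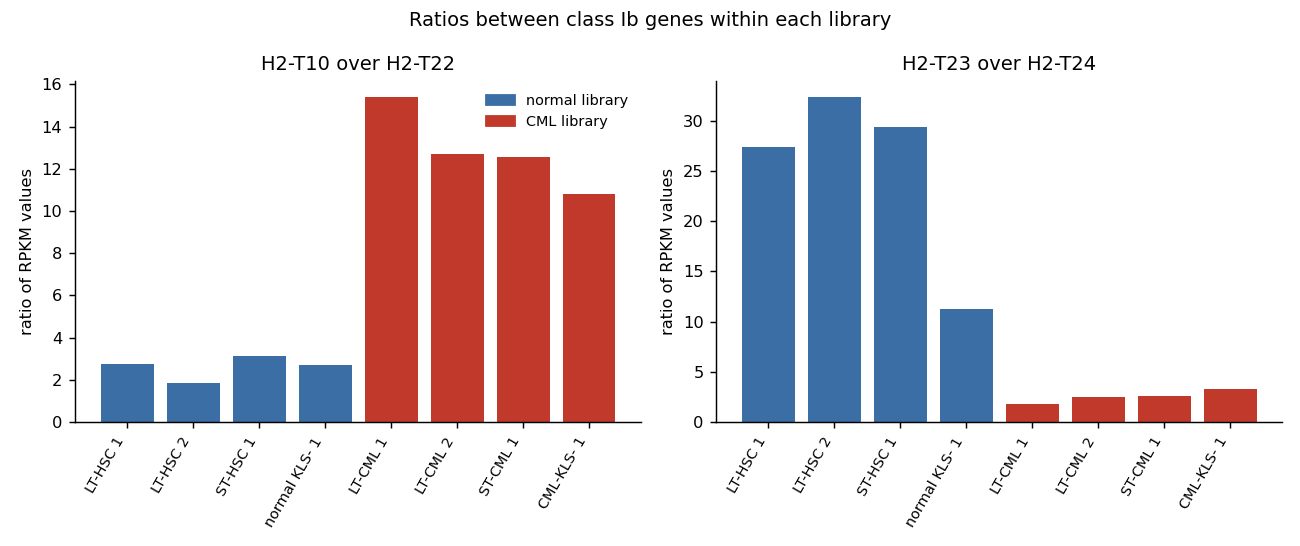
Ratio of H2-T10 to H2-T22 RPKM (left) and of H2-T23 to H2-T24 RPKM (right) in each library, on linear axes that start at 0. The 4 CML libraries sit between 10.8 and 15.4 on the left, above the normal 1.85 to 3.11, and between 1.77 and 3.32 on the right, below the normal 11.3 to 32.3.

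The summed level of the 7 genes differed less than its make-up. The sum was 235.8, 264.3 and 255.2 RPKM in the LT-HSC 1, LT-HSC 2 and ST-HSC libraries and 209.2, 181.7 and 201.5 in LT-CML 1, LT-CML 2 and ST-CML. H2-T23 made up 81.3% to 84.5% of the sum in normal HSCs and 46.0% to 53.6% in CML stem cells. Without H2-T23 the sum of the other 6 genes was 39.9 to 47.8 RPKM in normal HSCs and 84.3 to 113.0 in CML stem cells, and the groups did not overlap on either side of this split.

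**Figure D3:**
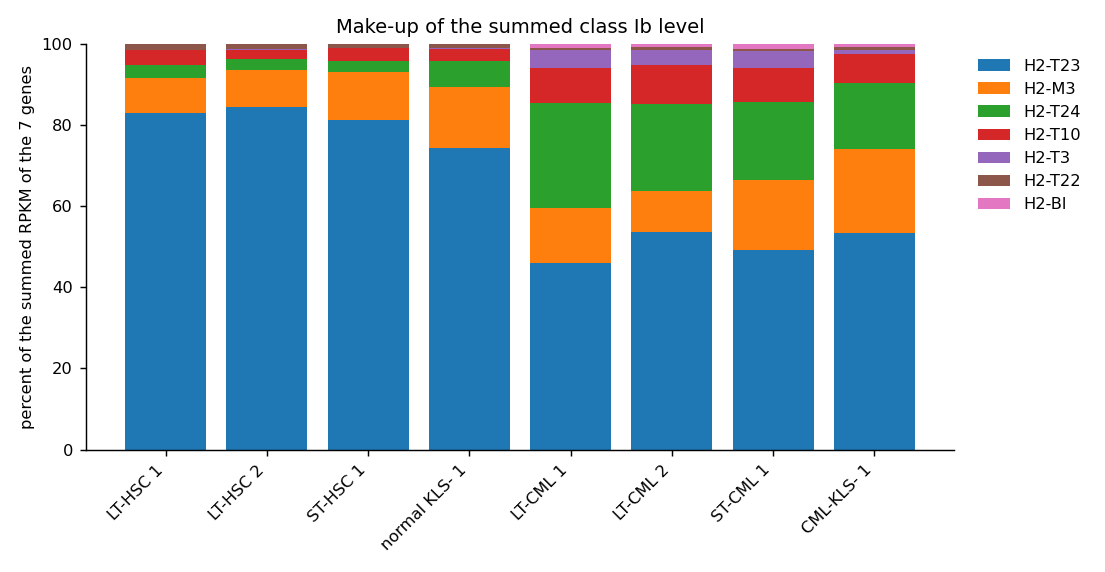
Percent of the summed RPKM of the 7 genes (vertical axis) contributed by each gene in each library. The H2-T23 segment covers 74.2% to 84.5% of the bar in the 4 normal libraries and 46.0% to 53.6% in the 4 CML libraries, and the H2-T24 segment is the second largest in the 3 CML stem libraries.

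The KLS- libraries, with 1 per condition, were not tested against each other, and their values are given alone, normal first and CML second. H2-T3 was at 0.0227 RPKM (1 read) and 0.747 RPKM (29 reads), and H2-Bl was listed at 0 and at 0.666 RPKM. H2-T24 was at 7.40 and 13.0 RPKM and H2-T10 at 3.35 and 5.87, ratios of 1.75 each. H2-T23 was at 83.5 and 43.1 RPKM and H2-T22 at 1.24 and 0.543, so that the normal value was 1.94-fold and 2.28-fold the CML one. H2-M3 was at 16.98 and 16.78 RPKM. All 6 genes that had separated in the stem cells pointed the same way in this pair, as did 83.4% of the 2296 genes that separated in the stem cells. None of the 7 differed by more than 1 on the log2(RPKM + 1) scale, a difference that 3.24% of tested genes passed (1.85% higher and 1.39% lower). That count rested on the pseudocount, since with 0.1 in place of 1 the differences of H2-T3 (2.79), H2-Bl (2.94) and H2-T22 (-1.06) passed it.

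The contrast of stem cells with KLS- cells asks how the genes follow differentiation, and in normal marrow this was not what had chosen the members, although the normal HSC libraries are shared with the contrast above. In a fit over all 8 libraries, in which the single normal KLS- library is assumed to vary as the others do, 3 of the 7 members were higher in normal HSCs at an adjusted p under 0.05 and none was lower, where 8.02% of all genes were higher and 5.93% lower. H2-T23 rose from 83.5 RPKM in the KLS- library to 195.9 to 223.2 in the HSC libraries (log2 difference 1.31 ± 0.16 SE, adjusted p = 0.00461, limma with Benjamini-Hochberg adjustment). H2-T10 went from 3.35 to between 5.86 and 9.01 (0.96 ± 0.24, adjusted p = 0.0403, limma). H2-T22 went from 1.24 to between 2.54 and 3.28 (0.83 ± 0.19, adjusted p = 0.0319, limma). With the 4 normal libraries alone H2-T23 stayed past the threshold (adjusted p = 0.0294, limma), while H2-T10 (0.124) and H2-T22 (0.107) did not. The calls also rested on single libraries. That of H2-T10 was lost without LT-HSC 1 (adjusted p = 0.0857), ST-HSC (0.0639), LT-CML 1 (0.0756), LT-CML 2 (0.0660) or ST-CML (0.0571, limma). That of H2-T22 was lost without LT-HSC 1 (0.0739), LT-HSC 2 (0.0583) or LT-CML 1 (0.0596, limma).

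The other 4 members did not pass that test. H2-M3 was at 16.98 RPKM in KLS- cells and 20.3 to 30.1 in HSCs (log2 difference 0.51 ± 0.35 SE, adjusted p = 0.347, limma). H2-T24 was at 7.40 RPKM in KLS- cells and 6.91 to 7.14 in HSCs (-0.06 ± 0.24, adjusted p = 0.877, limma). H2-T3 and H2-Bl were low in both (adjusted p = 0.459 and 0.689, limma). In CML marrow H2-T24 was at 38.6 to 54.4 RPKM in the stem libraries against 13.0 in CML-KLS- cells, and H2-M3 at 18.6 to 34.8 against 16.78. That CML contrast entered the choice of several members and was not tested.

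LT and ST stem cells were compared with disease as a covariate, over 2 LT and 1 ST library of each kind. None of the 7 members passed an adjusted p of 0.05, where 4.08% of all genes did. H2-M3 came nearest: it was lower in both LT libraries than in the ST library of each condition (20.3 and 24.2 against 30.1 RPKM in normal, 28.2 and 18.6 against 34.8 in CML), with a log2 difference of -0.50 ± 0.19 SE (unadjusted p = 0.0280, adjusted p = 0.208, limma). The other 6 differed by -0.12 to 0.12 with SEs of 0.13 to 0.25. The ratio of CML to normal was 2.14 between the ST libraries and 2.42 between the LT means for H2-T10, 5.47 and 6.62 for H2-T24, and 68.0 and 15.3 for H2-T3, whose LT ratio includes the high 6-month library. The ratio of normal to CML was 2.09 and 2.16 for H2-T23 and 1.89 and 2.49 for H2-T22. These differences between ST and LT ratios were not tested.

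**Figure D4:**
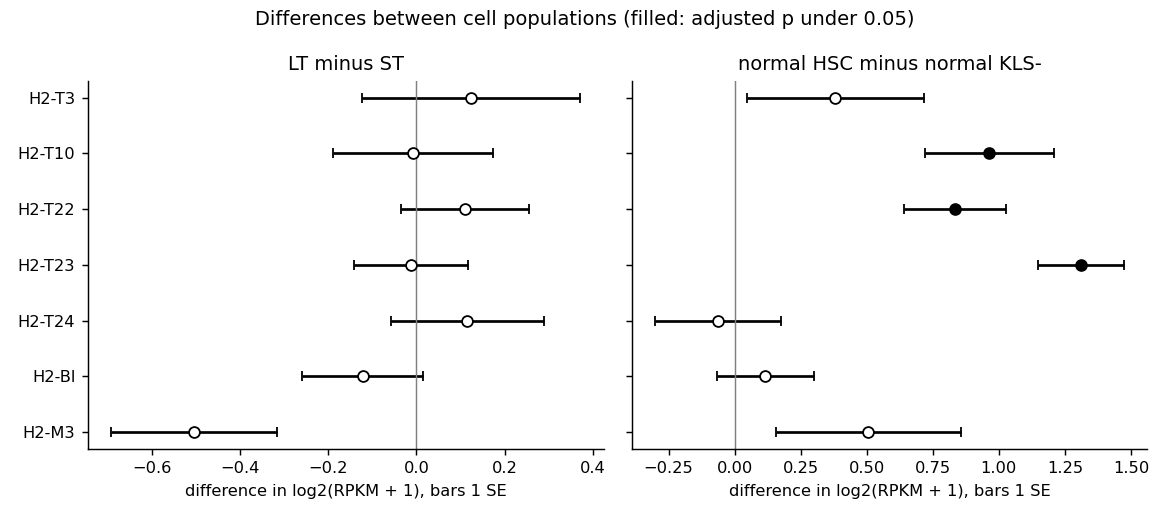
Difference in log2(RPKM + 1) (horizontal axes, points with bars of 1 SE) of the 7 genes between LT and ST stem cells with disease as a covariate (left) and between normal HSCs and normal KLS- cells (right). No gene is filled on the left, and H2-T10, H2-T22 and H2-T23 are filled on the right, marking an adjusted p under 0.05.

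Of 28 other class Ib and class I-like genes listed, 24 were in the files and 11 passed the low-value filter (summed RPKM above 1). This list and those that follow were drawn up with earlier results of these data known. Their calls and counts are therefore a description and no independent evidence. In CML stem cells against normal HSCs 1 was higher (a background of 1.18% of genes) and 4 were lower (1.16%), with a median log2 difference of 0.28, against -0.04 for all genes. H2-Q1 was higher (1.18 ± 0.28 against 0.179 ± 0.095 RPKM, SD, n = 3 each, log2 difference 0.88 ± 0.13 SE, adjusted p = 0.0163, limma). H2-Q7, with the highest mean of the list over the 8 libraries, fell from 48.8 ± 5.7 to 17.7 ± 2.0 RPKM (2.76-fold, log2 difference -1.41 ± 0.15, adjusted p = 0.00316, limma). H2-T9 lies in the T region near H2-T10 and fell from 2.26 ± 0.33 to 0.358 ± 0.081 RPKM (6.32-fold, log2 difference -1.26 ± 0.13, adjusted p = 0.00289, limma), but only 38.6% of its 100-base windows are unique. H2-Q8 (-1.05, adjusted p = 0.0114) and H2-Q6 (-0.89, adjusted p = 0.0351, limma) were the remaining ones. H2-Q6, H2-Q7 and H2-Q8 are near-identical copies, so how reads were divided among them is uncertain. The calls of H2-Q7 and H2-T9 held whichever library was left out. That of H2-Q1 was lost without LT-HSC 1 (adjusted p = 0.0908) or LT-CML 1 (0.0761), that of H2-Q8 without LT-HSC 1 (0.0679) or LT-CML 1 (0.0649), and that of H2-Q6 whichever of the 6 libraries was left out (0.0606 to 0.161, limma). H2-Q10, not called with all 6 libraries (adjusted p = 0.0594), passed without the 6-month LT-HSC library (0.00906, limma). In normal HSCs against normal KLS- cells 6 of the 11 were higher and none lower, where 8.02% and 5.93% of all genes were.

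The classical heavy chains did not move together. H2-K1 fell from 426.7 ± 19.7 to 235.1 ± 20.8 RPKM (log2 difference -0.86 ± 0.12 SE, adjusted p = 0.0129, limma), a call that was lost without LT-HSC 1 (adjusted p = 0.0676), LT-HSC 2 (0.0507) or ST-HSC (0.0515, limma). H2-D1 had 416.6 ± 34.8 and 433.0 ± 75.4 RPKM (adjusted p = 0.941, limma). B2m, the light chain that most class Ib molecules share with them, was at 2500 ± 312 and 2070 ± 448 RPKM (adjusted p = 0.615, limma).

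Genes that supply and load class I peptides gave no call in that comparison, although with quantile normalization or upper-quartile scaling 1 of the 14, Tap1, was lower (adjusted p = 0.0452 and 0.0429, limma). All 14 were tested, and 13 had a log2 difference below 0, with a median of -0.22. Tap1, a subunit of the peptide transporter, came nearest without such scaling (20.2 ± 1.9 and 12.9 ± 0.8 RPKM, adjusted p = 0.0757, limma). Calr, a chaperone of class I assembly and the gene of the list with the highest mean over the 8 libraries, had 182.3 ± 21.1 and 207.5 ± 18.9 RPKM. In normal HSCs against KLS- cells 4 of the 14 were lower, Calr among them (-2.16 ± 0.20 SE, adjusted p = 0.00208, limma), and none was higher, where 5.93% and 8.02% of all genes were.

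None of the 17 regulators of class I transcription passed the test between CML stem cells and normal HSCs either, and their median log2 difference was -0.18. Irf1, an activator that binds the ISRE and had the highest mean of them over the 8 libraries, was at 70.4 ± 1.8 RPKM in normal HSCs and 45.39 ± 10.48 in CML stem cells (adjusted p = 0.136, limma). Nlrc5, the class I transactivator, had 5.66 ± 0.15 and 4.17 ± 0.78 RPKM (adjusted p = 0.393, limma). In normal HSCs against normal KLS- cells 3 of the 17 were higher (8.02% of all genes) and 1 was lower (5.93%). Nlrc5 (1.17 ± 0.23 SE, adjusted p = 0.0190), Irf1 (1.88 ± 0.25, adjusted p = 0.00519) and Irf2 (1.66 ± 0.24, adjusted p = 0.00702) were the higher ones, and Irf8 (-3.89 ± 0.33, adjusted p = 0.00166, limma) the lower. Without LT-HSC 1 the call of Nlrc5 was lost (adjusted p = 0.0521, limma).

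**Figure D5:**
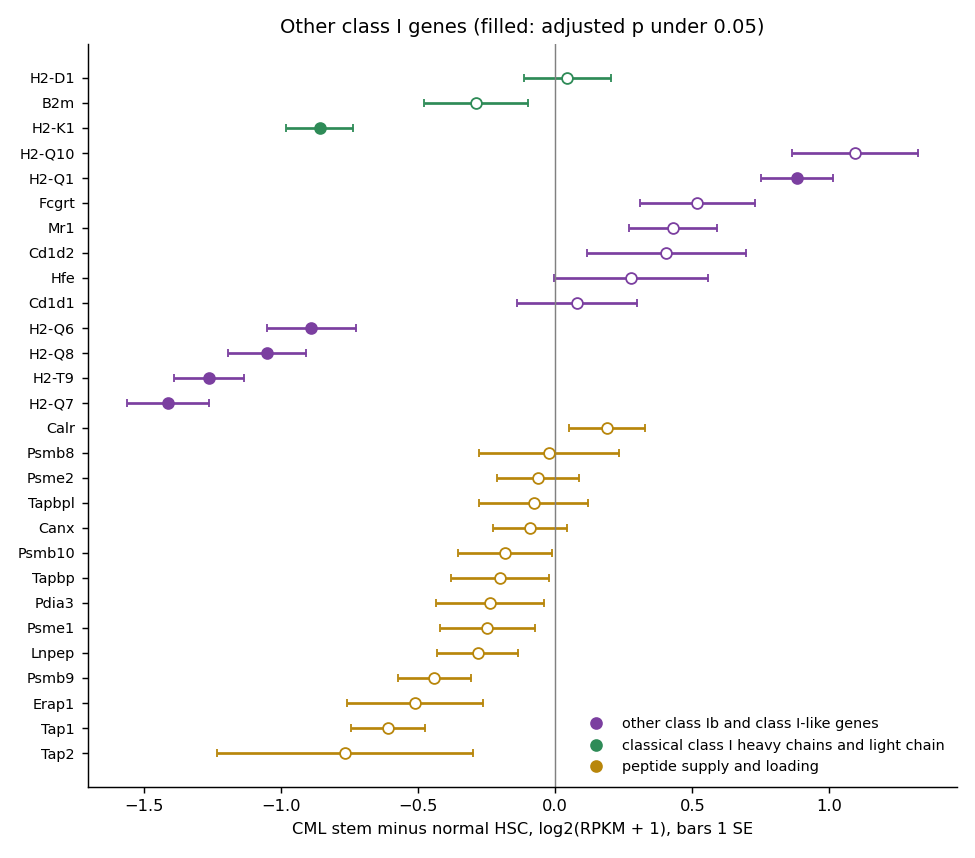
Difference in log2(RPKM + 1) between CML stem cells and normal HSCs (horizontal axis, points with bars of 1 SE) for the tested genes of 3 other lists, by colour. H2-Q1 is filled to the right of 0 and H2-K1, H2-Q6, H2-Q7, H2-Q8 and H2-T9 to the left, marking an adjusted p under 0.05, and none of the 14 peptide supply and loading genes is filled.

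Receptors of class Ib molecules were scarce: 9 of 14 were in the files, 5 passed the filter and none was called between CML stem cells and normal HSCs. Lilrb3, an inhibitory receptor of myeloid cells, had the highest mean over the 8 libraries, at 1.53 ± 0.87 and 1.61 ± 1.07 RPKM in normal HSCs and CML stem cells. Of the non-MHC genes that lie among the T and M regions, 20 of 26 in the files were tested and 1 was called. Zfp57, which encodes a zinc finger protein that maintains imprints, rose from 2.25 ± 0.35 to 6.27 ± 1.20 RPKM (log2 difference 1.15 ± 0.18 SE, adjusted p = 0.0192, limma), a call lost without LT-HSC 1 (0.1), ST-HSC (0.0515), LT-CML 1 (0.0988) or LT-CML 2 (0.0709). The median of these 20 was -0.16. Tubb5, a beta tubulin with the highest mean of them over the 8 libraries, had 403.0 ± 90.8 and 442.2 ± 82.8 RPKM (adjusted p = 0.846, limma).

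The genes most alike to each member across the 8 libraries are given as a description, from Pearson correlations of log2(RPKM + 1) over 8 points that share the same groups and libraries. For H2-T24 they were H2-Tw3 (r = 0.993) and Atp6v0e2 (0.992), a subunit gene of the vacuolar proton pump. For H2-Bl they were H2-Q1 (0.987) and AI429214 (0.984), and for H2-T3 C530028O21Rik (0.988) and Gm6578 (0.984). Pafah2 (0.992) and Gm12528 (0.975) were nearest to H2-T10. H2-T22 and H2-T23 had a neighbour in common, Cdc14a, a phosphatase gene (0.988 and 0.990), beside Sfn for H2-T22 (0.988) and Mgea5 for H2-T23 (0.987). H2-M3 was nearest to Efna4 (0.988) and Rgag4 (0.982). Among the members, H2-T24 with H2-Bl (0.978), H2-T22 with H2-T23 (0.977) and H2-T3 with H2-T24 (0.971) were the closest pairs, whereas H2-T10 with H2-T22 was at -0.09.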

How the data were processed

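RNA from sorted bone marrow cells had been amplified from oligo-dT priming with a low-input kit and sequenced as paired reads of 100 bases. Per the labels and methods, the authors mapped reads to mouse mm9 with DNAnexus software and deposited 1 table of RPKM per library. The annotation, the counting rule and the treatment of reads that match several genes are not given in the sources used here. No read counts were used. Depth was estimated from the steps between low RPKM values, for 1877 genes, and has no counting interval. Reads per member were taken from those steps only for H2-T3 and H2-T22.

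Values were tested as log2(RPKM + 1), which understates the change of low genes, with limma 3.58.1 in R 4.3.3 over 12561 genes with a summed RPKM above 1, with Benjamini-Hochberg adjustment. CML stem cells were compared with normal HSCs over 6 libraries, LT with ST over the same 6 with disease as a covariate, and normal HSCs with normal KLS- cells in a fit of all 8 with 1 mean per condition and stage. The labels do not say whether libraries came from separate mice, so p-values measure only the spread between these libraries. All 7 members passed the filter. On simulated data with 200 changed genes among 12561, 91%, 89% and 82.5% were recovered in the 3 comparisons in that order. The simulated shift was larger than most differences given above, and genes of low mean level were not among those shifted. These shares therefore do not measure the recovery of smaller differences or of low genes. The simulated spread was taken from the normal LT-HSC pair, without the difference between LT and ST that the CML stem fit pools over. How many unchanged genes were among the simulated calls is not given here.

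The members and the gene lists were chosen with earlier results of these data known. All members were named. From each list the genes past an adjusted p of 0.05 between CML stem cells and normal HSCs and the gene with the highest mean RPKM over the 8 libraries were named, with the 2 genes most alike to each member. Others named (Tap1, Nlrc5, Irf2, Irf8, H2-D1, H2-Q10, H2-Tw3) were chosen after their values were seen. Exon windows were matched to the mm9 assembly. Pseudocounts, filters, scalings, covariates and the omission of single libraries were varied.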

Additional observations from a re-analysis of the deposited data

Results flagged for a closer look

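H2-T24 was flagged because its difference between stem and KLS- cells ran in opposite directions in normal and CML marrow. Each of the 3 normal HSC libraries (6.91 to 7.14 RPKM) was below the normal KLS- library (7.40 RPKM), and each of the 3 CML stem libraries (38.6 to 54.4 RPKM) was above the CML-KLS- library (13.0 RPKM). The log2(RPKM + 1) difference of stem from KLS- cells was 1.73 larger in CML than in normal marrow. This difference was not tested, because the CML contrast entered the choice of the members. On the normal side it was small, -0.06, and 0.00126 with upper-quartile scaling.

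The H2-Tw3 row is in none of the gene lists above, although it passed the filter and was among all genes tested. It was flagged because it had a mean of 1.37 RPKM in the CML stem libraries and was listed at 0 in all 4 normal libraries. RefSeq gives this symbol as a synonym of H2-T3.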

How the results depend on the processing

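Of the 90 recomputed differences of the 7 members between CML stem cells and normal HSCs, 86 moved by less than the pooled SD within the groups and 4 by more. That SD is taken over LT and ST libraries together, so it is not a spread between replicates. Filters and the stage covariate leave these differences unchanged by construction, and omission of a single library cannot move them past that SD. The count is therefore no measure of robustness. With a pseudocount of 0.1 the log2 difference of H2-T3 was 4.45, of H2-Bl 3.45 and of H2-T22 -1.13, and with quantile normalization that of H2-T23 was -0.979. The number of genes called in that comparison was 294, and was 193 with no minimum level, 543 with stage as a covariate and 115 to 217 when 1 library was left out. Between LT and ST the 513 calls became 0 with no minimum level (limma, 2575 at an unadjusted p under 0.05), with no other tool run, and 55 to 712 when 1 library was left out, the fewest without the ST-HSC library and 63 without the ST-CML library. Between normal HSCs and normal KLS- cells the 1752 calls became 977 with no minimum level, 566 with the 4 normal libraries alone and 859 to 1750 when 1 library was left out. H2-T23 kept its call there under every alternative (adjusted p 0.00233 to 0.0294, limma), whereas those of H2-T10 (0.0221 to 0.124) and H2-T22 (0.0276 to 0.115) were lost in 14 recomputed fits together. In the KLS- pair 407 genes passed the fold limit, and 1156 with a pseudocount of 0.1. The causes were not tested.

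Of the 83 recomputed LT to ST differences, none passed the threshold and 12 changed sign. When 1 library was left out they ranged from -0.12 to 0.369 for H2-T3, -0.111 to 0.123 for H2-T10, -0.0325 to 0.254 for H2-T22, -0.055 to 0.0253 for H2-T23, -0.0085 to 0.239 for H2-T24 and -0.271 to 0.0282 for H2-Bl. With upper-quartile scaling that of H2-T10 was 0.0149 and that of H2-T23 0.0167, and the difference of H2-T24 between normal HSCs and KLS- cells was 0.00126. No paired analysis was possible because the labels tell the normal LT libraries apart by age and give them no replicate numbers. H2-Bl rested on 0 to 2.25 reads in each normal library as estimated from its annotated length, and H2-T3 on 1 to 46 reads.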
